A study of Macaca mulatta with 12 samples.

Results

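The structure of the T cell receptor beta chain (TRB) junction was compared between day -5 and day -4 in 6 libraries, 3 of each day, out of 12 libraries in the series. The libraries were chosen by the day in their labels and paired by the animal name they carry, which is Amazo, Nebula or Rocket. The 6 clone tables held 162728 clonotype entries of 218326 in the series, where a clonotype is 1 CDR3 nucleotide sequence within 1 library and CDR3 is the stretch that joins the V, D and J segments. Blood mononuclear cells came from rhesus macaques (Macaca mulatta) that were neither diabetic nor transplanted and were matched with the donor at 1 DRB allele. All 3 animals were infused with apoptotic donor leukocytes (ADLs, donor white cells fixed with ECDI) on day -7 and again on day 1 relative to an intended transplant, per the series text, while a legend of the study gives day 0 for the second infusion. Both days compared here precede it. They also shared a short course of an anti-CD40 antibody, rapamycin, tocilizumab and etanercept. Day -5 thus lies 2 days and day -4 lies 3 days after the first infusion, neither day is an untreated control, and the infusion, the drugs and the passage of time cannot be told apart. T cells were not sorted, so the tables pool all blood T cells.

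Each T cell builds its TRB gene by cutting out the DNA between 1 V, 1 D and 1 J segment and joining the ends, while enzymes trim the ends and terminal transferase adds bases that no segment encodes. The resulting CDR3 loop is the part of the chain that faces the peptide in the groove of the MHC molecule. Joining often shifts the reading frame, and transcripts of such failed rearrangements are removed in part by nonsense-mediated decay. In the TRB locus the first D segment lies before the TRBJ1 cluster and the second D segment lies between the TRBJ1 and TRBJ2 clusters, so that TRBD2 is expected mainly next to a TRBJ2 segment.

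The pair labelled Amazo did not hold 1 repertoire. The library labelled Amazo day -5 shared 265 clonotypes with Amazo day -4, against 2636 with Rocket day -4 and 1856 with Rocket day -5, while the Nebula pair shared 1462 and the Rocket pair 1732. The Morisita-Horn index, which is 0 without shared clonotypes and 1 for equal repertoires, was 0.0116 within the Amazo pair, 0.765 within Nebula, 0.975 within Rocket, and 0.96 between Amazo day -5 and Rocket day -4. Values are therefore given by library or pair, and the means of paired differences also without Amazo. Total counts were 42695 in Nebula day -4 and 259662 to 556954 in the other libraries, and 17061 to 36038 clonotypes were listed per library. Beyond the animal name no label describes the replicates, so the p-values measure only the spread between these libraries. Intervals and floors given below cover counting error only, since amplified reads are not independent molecules.

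The largest in-frame clonotypes differed between the repertoires in V, J and length. They are shown because they weigh more in count-weighted values than in values per clonotype. The effect of each on those values was not tested. Lower case marks bases assigned to V, D or J, capitals mark inserted bases that were placed in none of them, and each is read 5′ to 3′.
Rocket day -5 and day -4 largest (TRBV29-1, TRBD2, TRBJ2-1): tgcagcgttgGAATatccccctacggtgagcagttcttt
Amazo day -5 largest (TRBV9, TRBD1, TRBJ2-3): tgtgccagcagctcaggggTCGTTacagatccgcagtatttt
Amazo day -4 largest (TRBV5-1, TRBD1, TRBJ1-4): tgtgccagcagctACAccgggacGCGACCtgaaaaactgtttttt
Nebula day -5 and day -4 largest (TRBV6-3, TRBD1, TRBJ1-1): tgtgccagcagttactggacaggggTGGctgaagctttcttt
The Rocket sequence is 39 nt long with 4 inserted bases and held 8.35% of day -5 counts and 6.26% of day -4 counts. It also took 3.85% of the library labelled Amazo day -5 and 0.00229% of Amazo day -4. The Amazo day -4 sequence is 45 nt long with 9 inserted bases. It held 0.0839% of the library labelled Amazo day -5 and 6.64% of Amazo day -4, which hold different repertoires. The Nebula sequence is 42 nt long with 3 inserted bases, and its share was 1.88% at day -5 and 4.07% at day -4 (95% Wilson intervals 1.84% to 1.93% and 3.89% to 4.26%).

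The largest out-of-frame clonotypes are shown as examples of failed rearrangements that are nevertheless abundant as RNA, with capitals for inserted bases as above.
Rocket day -5 and day -4, Amazo day -5 (TRBV4-3, TRBD2, TRBJ2-7): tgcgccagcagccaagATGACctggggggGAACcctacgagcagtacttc
Nebula day -5 and day -4 (TRBV11-1, TRBD1, TRBJ1-6): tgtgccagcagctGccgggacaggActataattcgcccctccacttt
Amazo day -4 (TRBV24-1, no D, TRBJ2-4): tgtgccaccCccaaaacactcagtacttc
The 50 nt sequence took 0.437% of counts in Rocket day -5, 0.357% in Rocket day -4 and 0.209% in the library labelled Amazo day -5. The 47 nt Nebula sequence took 0.111% at day -5 and 0.145% at day -4. The 29 nt sequence took 0.225% of Amazo day -4.

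Many long in-frame CDR3s that carried a stop codon shared 1 run of bases across all 3 animal names, and this run is marked in capitals here.
Amazo day -5, Rocket day -5 and day -4: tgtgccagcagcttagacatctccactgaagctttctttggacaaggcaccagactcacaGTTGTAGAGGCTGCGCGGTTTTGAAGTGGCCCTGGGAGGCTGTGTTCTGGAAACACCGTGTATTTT
Amazo day -4: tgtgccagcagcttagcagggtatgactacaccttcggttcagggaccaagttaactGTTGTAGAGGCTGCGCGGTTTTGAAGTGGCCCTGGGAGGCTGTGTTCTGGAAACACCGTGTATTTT
Nebula day -5: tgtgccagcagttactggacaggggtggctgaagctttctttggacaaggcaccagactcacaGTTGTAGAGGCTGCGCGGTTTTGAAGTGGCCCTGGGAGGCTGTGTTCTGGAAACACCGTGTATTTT
Nebula day -4: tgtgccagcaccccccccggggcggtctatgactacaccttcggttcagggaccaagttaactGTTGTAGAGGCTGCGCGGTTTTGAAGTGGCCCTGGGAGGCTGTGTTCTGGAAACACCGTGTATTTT
The run is 66 bases long, and its last 22 bases are the part that the tables assign to TRBJ1-3. Of the sequences with the run, these had the most counts in their libraries, with 260 in Amazo day -5, 488 and 315 in Rocket, 102 in Amazo day -4, 67 in Nebula day -5 and 7 in Nebula day -4. Each of the 4 sequences opens with a complete productive CDR3 listed in the same library. The Nebula day -5 sequence opens with the 42 nt CDR3 of the largest Nebula clonotype shown above. The largest stop-codon clonotype of Nebula day -5 overall lacked the run, was 33 nt long and had 89 counts.

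Counted once per clonotype, productive CDR3s were slightly shorter at day -4 than at day -5 in all 3 pairs. Productive means in frame and without a stop codon. The mean length was 43.50 nt in Amazo day -5, 43.43 nt in Nebula and 43.68 nt in Rocket, and at day -4 it was 43.32, 43.17 and 43.41 nt in the same order. All 3 day -4 values lay below all 3 day -5 values, with Rocket day -4 and Nebula day -5 nearly touching. The difference of day -4 minus day -5 averaged -0.239 ± 0.054 nt (SD of paired differences, n = 3) and -0.270 nt without Amazo. The exact two-sided sign-flip permutation test gave p = 0.25, which is the smallest p that 3 pairs allow (0.5 with 2 pairs), so that no single value here could reach 0.05. Over the 18 single values tested the Benjamini-Hochberg adjusted p of this exact test was 0.692, and without the pairing the exact permutation test of 3 against 3 libraries gave its smallest possible p, 0.1. Both tests count the library labelled Amazo day -5 as separate from Rocket day -5, although their Morisita-Horn index was 0.896. The difference was larger than the SD within a day (0.129 and 0.124 nt) and about as large as the difference between animals, since Nebula was 0.249 nt shorter than Rocket at day -5 and 0.246 nt shorter at day -4. The library labelled Amazo day -5 was 0.184 nt shorter than Rocket day -5, although the 2 hold nearly 1 repertoire. At an equal depth of 42695 counts the mean paired difference was -0.195 nt, and -0.183 nt without Amazo.

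Weighted by counts, the lengths did not move together. The mean was 42.87 nt at day -5 and 43.00 nt at day -4 in Amazo, 43.36 and 43.27 nt in Nebula, and 42.64 and 42.74 nt in Rocket. The mean difference was 0.048 ± 0.119 nt (SD, n = 3, exact sign-flip permutation p = 0.5) and 0.008 nt without Amazo. Large clones weighed on this value. With clonotypes of at least 0.5% of counts left out, the count-weighted difference was -0.234 nt on average. In PBMC RNA, fewer cells of a clone and less TRB RNA per cell cannot be told apart.

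Shares of short and long CDR3s, once per clonotype, moved unequally. Clonotypes of at most 11 residues made up 3.90%, 3.84% and 3.67% of productive clonotypes at day -5 in Amazo, Nebula and Rocket, and 4.51%, 4.43% and 3.89% at day -4, so that the share was higher at day -4 in each pair. Clonotypes of at least 18 residues made up 4.61%, 4.78% and 5.03% at day -5 and 4.95%, 4.06% and 4.22% at day -4. The long end was thus lower at day -4 in Nebula and Rocket and higher in Amazo. The peak stayed at 14 or 15 residues in every library when each clonotype was counted once.

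**Figure D1:**
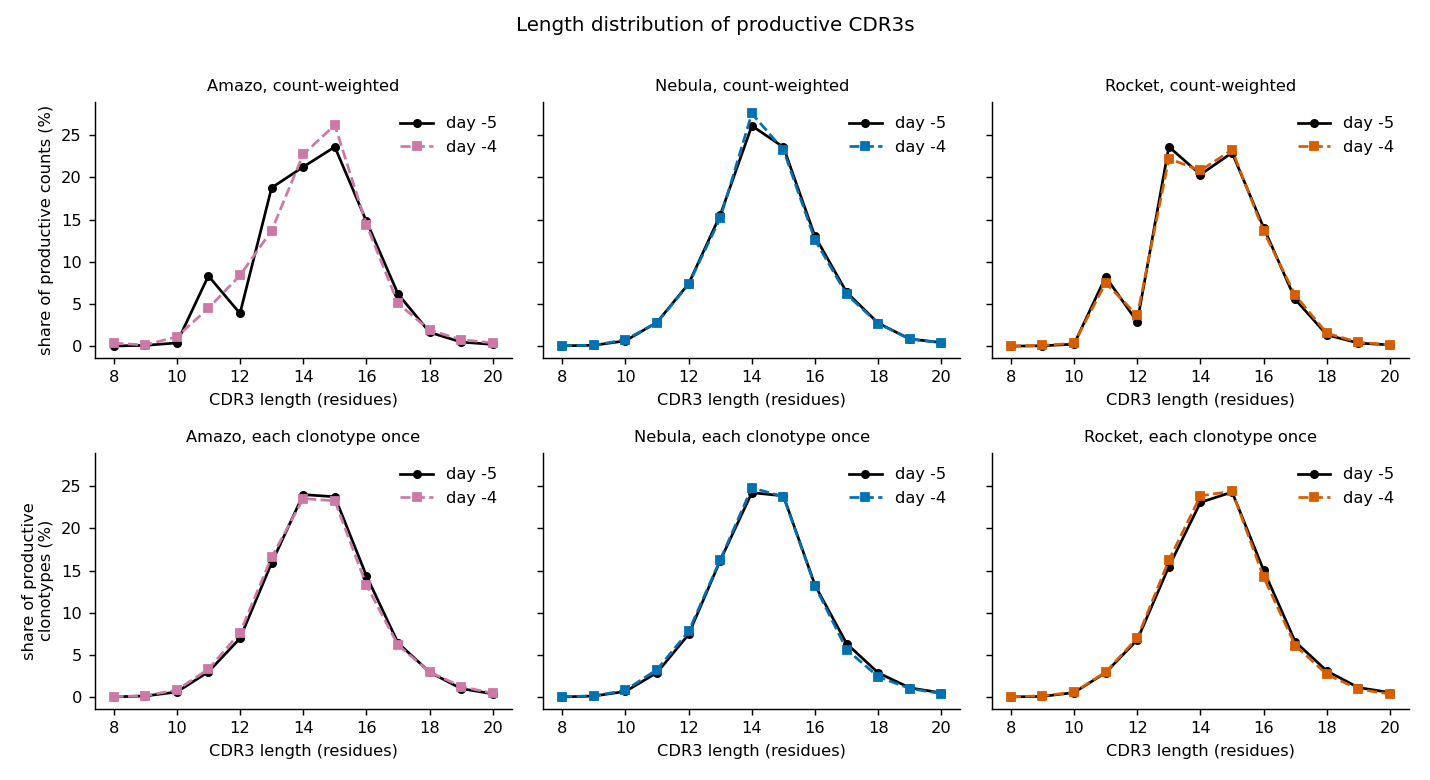
Share of productive counts (top) or productive clonotypes (bottom), in percent, by CDR3 length in residues, for the 3 pairs of libraries, with day -5 as solid black and day -4 as dashed coloured lines. Per clonotype the 2 days nearly coincide, whereas with count weighting Amazo day -5 (8.34%), Rocket day -5 (8.23%) and Rocket day -4 (7.51%) have an extra peak at 11 residues.

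The parts of the junction did not move alike. Inserted bases per productive clonotype numbered 7.75 at day -5 and 7.56 at day -4 in Nebula and 7.24 and 7.13 in Rocket, but 7.24 and 7.77 in Amazo. Bases assigned to J were fewer at day -4 in all 3 pairs, with 17.54 and 17.29 in Amazo, 17.30 and 17.26 in Nebula, and 17.62 and 17.52 in Rocket (mean difference -0.127 ± 0.105, SD, n = 3, exact sign-flip permutation p = 0.25, and -0.070 without Amazo). Bases assigned to V and D differed by 0.25 or less in size in each pair. Within Nebula, -0.267 of the -0.268 nt lay within V-J pairs and not in their mix, and within Rocket -0.206 of -0.272 nt did. In Amazo only -0.026 of -0.176 nt lay within V-J pairs. These splits were added after the data had been seen.

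Out-of-frame CDR3s were longer on average than productive ones in every library. Once per clonotype they averaged 47.5, 48.1 and 47.6 nt at day -5 and 48.9, 47.2 and 46.4 nt at day -4 in Amazo, Nebula and Rocket. Count-weighted they were shorter at day -4 in all 3 pairs, with 47.2, 47.9 and 46.9 nt at day -5 and 46.8, 47.4 and 46.5 nt at day -4 (mean difference -0.417 ± 0.053 nt, SD, n = 3, exact sign-flip permutation p = 0.25, and -0.421 nt without Amazo). Once per clonotype they carried 11.1, 11.97 and 11.1 inserted bases at day -5 and 12.95, 11.5 and 10.4 at day -4, more than productive clonotypes in each library. These out-of-frame means include clonotypes with the shared run of bases marked above, which no productive clonotype held. Such clonotypes made up 1.56% (Rocket day -4) to 2.74% (Nebula day -4) of out-of-frame clonotypes. The median length of all clonotypes with the run was 128 or 129 nt per library. Out-of-frame means without the run were not taken, so its part in the excess of length and inserted bases was not tested.

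Residue use in the loop moved little between the days within Nebula and Rocket. The loop was taken as the CDR3 without its first 4 and last 4 residues, which V and J largely fix, and shares are percent of loop residues. Count-weighted, the sum of all share differences divided by 2 was 8.52 percentage points in the Amazo pair, 1.40 in Nebula and 2.00 in Rocket, against 9.34 between Nebula and Rocket at day -5. Counted once per clonotype it was 2.04, 0.669 and 1.10 points, against 1.73 between Nebula and Rocket. Of 20 amino acids, 6 moved the same way in all 3 pairs with count weighting (2 up, 4 down) and 4 did once per clonotype (1 up, 3 down). Without Amazo these numbers were 7 and 13. The residues described next were chosen for sharing a direction, so their values are a description with no test.

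Glycine, the smallest and most flexible residue, had a higher share at day -4 in all pairs under both weightings. Once per clonotype its share was 20.80%, 20.65% and 20.42% at day -5 and 21.37%, 20.78% and 21.03% at day -4 in Amazo, Nebula and Rocket. Day -5 and day -4 values overlapped, because Amazo day -5 was above Nebula day -4. The pairs differed by 0.44 points on average (0.37 without Amazo), and count-weighted by 0.95 points (0.34 without Amazo), with 2.17 points in Amazo.

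Serine, a small polar residue common in germline V ends, had a lower share at day -4 in all pairs under both weightings. Once per clonotype it was 8.21%, 8.12% and 8.40% at day -5 and 8.07%, 8.06% and 8.02% at day -4. All day -4 values lay below all day -5 values, with a mean difference of -0.19 points (-0.22 without Amazo). Tryptophan, a bulky aromatic residue, was lower at day -4 in all pairs once per clonotype by 0.08, 0.13 and 0.15 points in size, but count-weighted it was higher in Nebula. Cysteine was near 0.05% and its differences were at most 0.02 points in size.

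Count-weighted, aspartate, leucine and methionine were lower and glutamine was higher at day -4 in all 3 pairs. Aspartate, an acidic residue, had shares of 7.95%, 6.54% and 8.35% at day -5 and 5.37%, 6.41% and 8.14% at day -4. Its difference of -2.58 points in Amazo was far larger than -0.13 in Nebula and -0.21 in Rocket. Glutamine went from 5.82%, 7.64% and 5.03% to 6.39%, 7.70% and 5.47%. Count-weighted shares give large clones most weight, and once per clonotype neither aspartate nor glutamine moved the same way in all pairs.

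**Figure D2:**
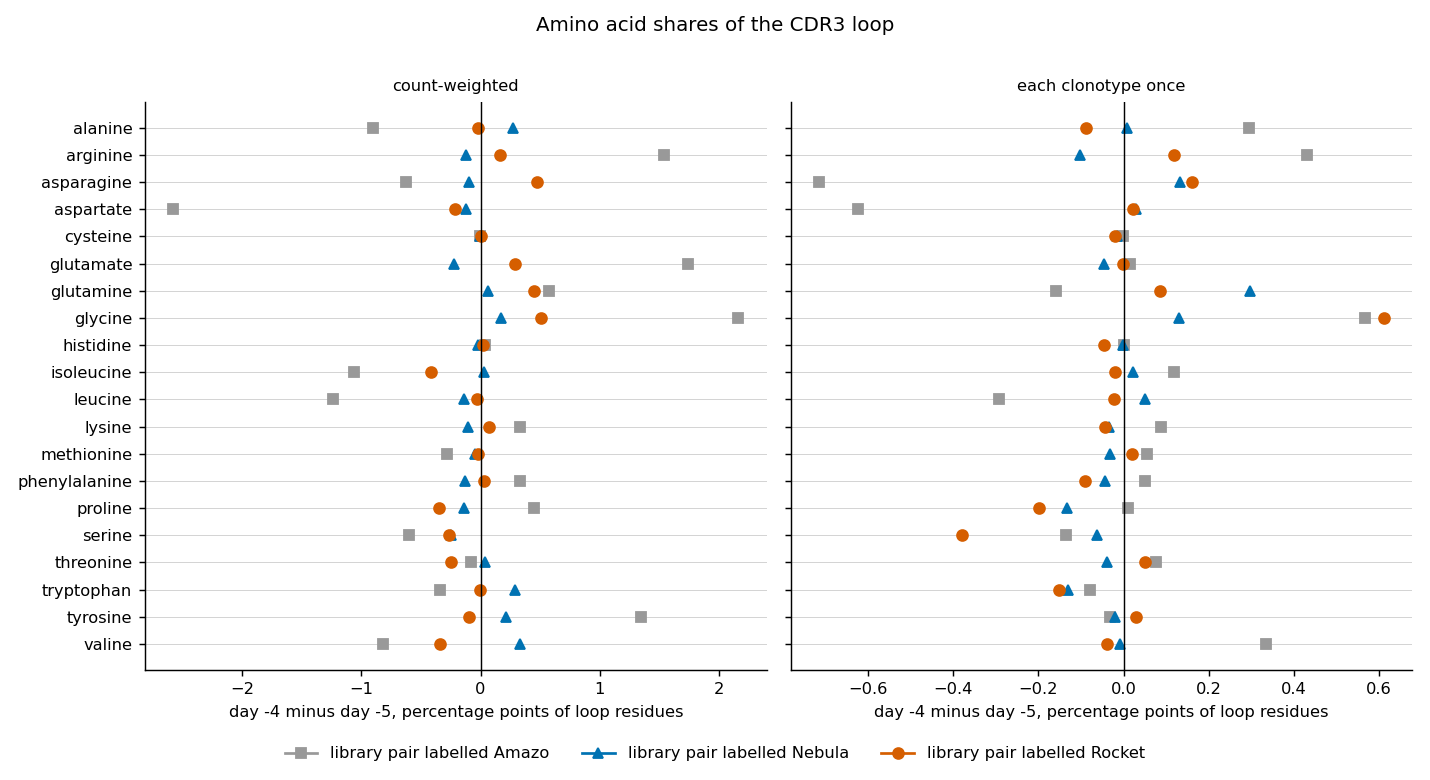
Difference of day -4 minus day -5 in the share of each amino acid among CDR3 loop residues, in percentage points, count-weighted (left) and once per clonotype (right), with 1 point per pair of libraries. Amazo (grey squares) lies farthest from 0 for most residues on the left, reaching -2.58 points for aspartate.

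Loop hydropathy and charge differed most in Amazo. Hydropathy is the mean Kyte-Doolittle value of loop residues, where a lower value means more polar. Count-weighted it was -0.880, -1.027 and -0.741 at day -5 and -1.099, -0.996 and -0.812 at day -4 in Amazo, Nebula and Rocket, a mean difference of -0.086 ± 0.126 (SD, n = 3, exact sign-flip permutation p = 0.5) or -0.020 without Amazo. Once per clonotype all 6 libraries lay between -1.087 and -1.029, and the differences were 0.044 in Amazo, -0.004 in Nebula and -0.015 in Rocket (mean 0.008, and -0.010 without Amazo). Net charge, counted as lysine plus arginine minus aspartate and glutamate per loop, was negative throughout. Its count-weighted difference was 0.168 in Amazo, against 0.009 in Nebula and 0.007 in Rocket (mean 0.062 ± 0.092, SD, n = 3, exact sign-flip permutation p = 0.25, and 0.008 without Amazo).

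**Figure D3:**
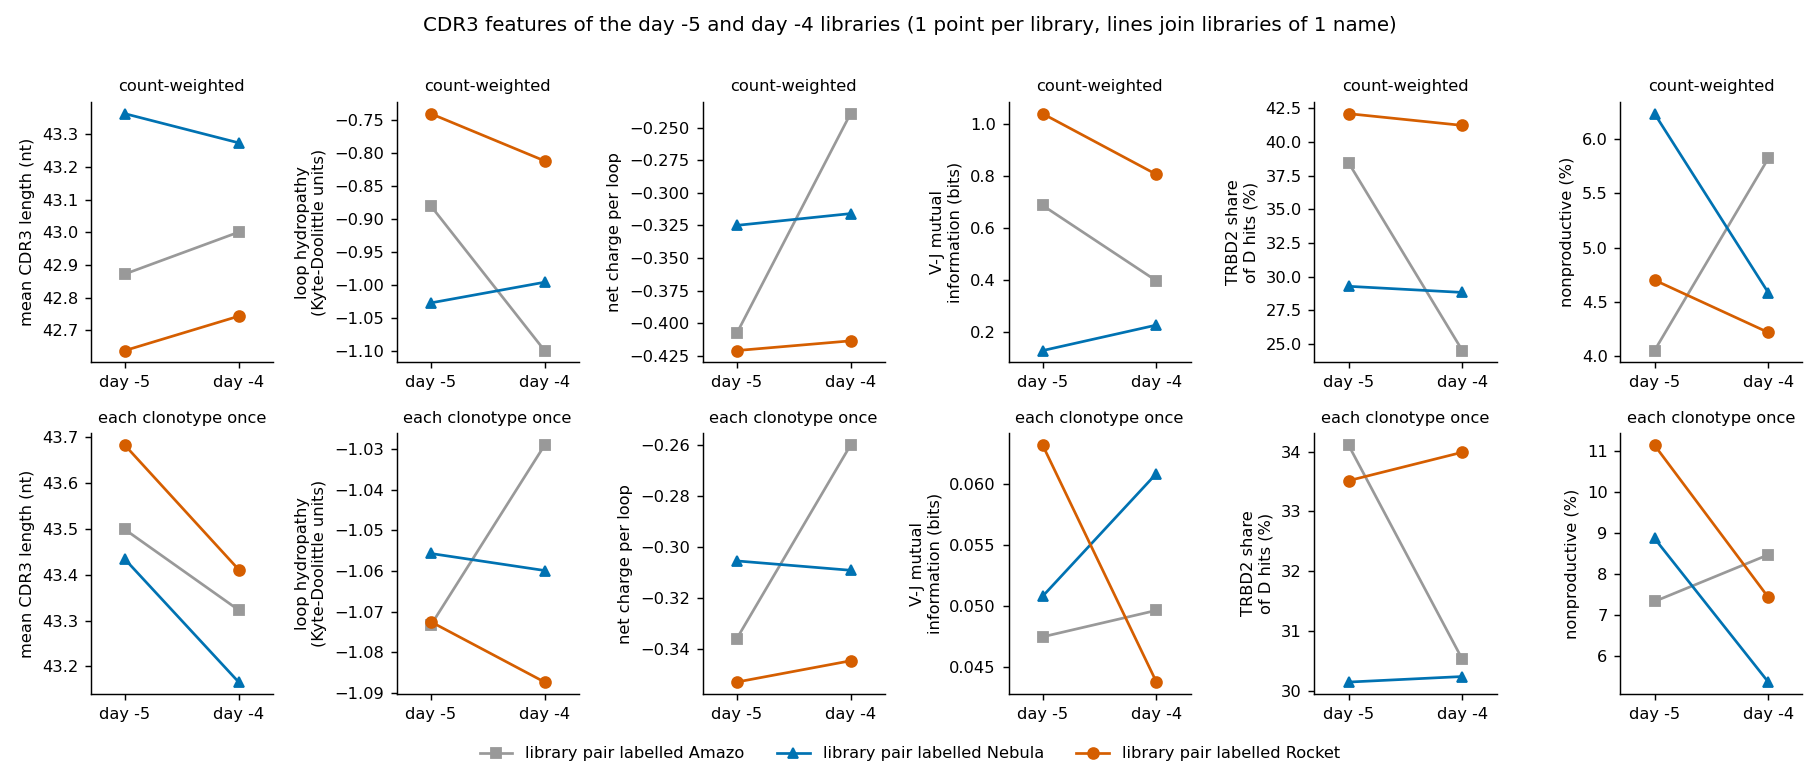
Mean CDR3 length, loop hydropathy, loop net charge, V-J mutual information, TRBD2 share of D hits and nonproductive share at day -5 and day -4, weighted by counts (top) or with each clonotype once (bottom), with 1 point per library and lines joining libraries of the same name. The vertical axes do not start at 0. The unweighted mean length is lower at day -4 in all 3 pairs (43.43 to 43.68 nt at day -5, 43.17 to 43.41 nt at day -4), and count-weighted charge and TRBD2 share also have 1 direction but differ most in Amazo.

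V and J segments were used in a wide range of pairs, with 670 to 714 V-J pairs seen per library. No V-J pair passed the test between the days. The quasi-likelihood test of edgeR with the animal name as a block called 0 of 701 pairs at an adjusted p below 0.05 (0% of those tested), 11 had an unadjusted p below 0.05, and the smallest adjusted p was 0.924. DESeq2 on all 3 pairs of libraries called 0, with 71 at an unadjusted p below 0.05. Without Amazo, edgeR called 0 of 634 with 21 at an unadjusted p below 0.05. The dispersion of counts was 0.226 with Amazo and 0.0533 without it. Tables of 701 V-J pairs were simulated at the former dispersion, with 200 of them changed 4-fold, up or down. Both libraries of a name were given 1 mean repertoire there, unlike the real Amazo pair. The edgeR test recovered 62.5% of the changed V-J pairs, with 4 false calls among 501 unchanged, so that changes of this size can be missed. Recovery with fewer changed V-J pairs was not simulated.

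The 3 pairs of smallest p did not pass. TRBV11-2/TRBJ2-2 took 0.0893%, 0.0805% and 0.115% of counts at day -5 and 0.0222%, 0.0398% and 0.0917% at day -4 in Amazo, Nebula and Rocket (log2 fold change -1.29, SE 0.42, edgeR adjusted p 0.924). TRBV24-1/TRBJ2-5 took 0.0827%, 0.170% and 0.0343% at day -5 and 0.268%, 0.201% and 0.0870% at day -4, and in Amazo day -4 a single clonotype made up 0.145%. TRBV2-3/TRBJ1-2 took 0.0784%, 0.0418% and 0.0228% at day -5 and 0.608%, 0.0726% and 0.0416% at day -4, with 0.442% from 1 clonotype in Amazo day -4, and 25.8% of its counts had a tied V hit. All 3 moved the same way in each pair but made up less than 1% of any library.

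The 5 V-J pairs with the largest mean share were TRBV29-1/TRBJ2-1, TRBV9/TRBJ2-3, TRBV9/TRBJ1-1, TRBV12-2/TRBJ2-1 and TRBV12-2/TRBJ2-3. TRBV29-1/TRBJ2-1 took 8.44% of Rocket day -5 and 6.41% of Rocket day -4, of which 8.35% and 6.26% were the clonotype shown above. TRBV9/TRBJ2-3 took 6.12% and 4.77% in Rocket, 4.53% in the library labelled Amazo day -5 and 0.121% in Amazo day -4. In Nebula these 5 pairs took 0.151% to 0.324% at day -5 and 0.192% to 0.267% at day -4. Each of the 5 had a lower share at day -4 in Rocket and Amazo, while in Nebula 2 were higher and 3 lower. For TRBV12-2/TRBJ2-1 94.2% and for TRBV12-2/TRBJ2-3 95.5% of counts had another V hit that tied with the first, so the V gene of these pairs is uncertain.

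Linkage of V with J was measured as mutual information, which is 0 bits when J use does not depend on V. Count-weighted it was 0.686, 0.128 and 1.04 bits at day -5 and 0.396, 0.226 and 0.805 bits at day -4 in Amazo, Nebula and Rocket. It was lower at day -4 in Amazo and Rocket and higher in Nebula (mean difference -0.142 ± 0.209 bits, SD, n = 3, exact sign-flip permutation p = 0.5, and -0.068 without Amazo). Once per clonotype all libraries had 0.044 to 0.063 bits. This low value depends on how many clonotypes fill the table, and at 15161 clonotypes drawn from each library it was 0.065, 0.066 and 0.063 bits at day -5 and 0.062, 0.065 and 0.060 bits at day -4, lower at day -4 in all 3 pairs by 0.003, 0.001 and 0.003 bits in size. Drawing equal numbers was an alternative added after seeing the data.

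The V-J mix was closer within the Nebula pair and within the Rocket pair than between Nebula and Rocket. The share of clonotypes that would have to change V-J pair to turn 1 library into the other was 9.84% within Nebula and 10.5% within Rocket, once per clonotype, against 20.95% between Nebula and Rocket at day -5 and 21.1% at day -4. Within the Amazo pair it was 21.1%, while the library labelled Amazo day -5 was 10.1% from Rocket day -5 and 7.69% from Rocket day -4, both below the distance within Rocket. Amazo day -4 was 20.96% from Rocket day -4 and 22.6% from Nebula day -4. For CDR3 length the same measure was 1.64% within Nebula, 2.12% within Rocket and 2.33% within Amazo, against 2.81% between Nebula and Rocket at day -5 and 2.51% at day -4. Some libraries of different names were as close, such as Amazo day -5 and Nebula day -5 at 1.44% and Nebula day -5 and Rocket day -4 at 1.68%. All these distances were taken at unequal numbers of productive clonotypes, from 15161 in Rocket day -5 to 33358 in Rocket day -4. How much of each distance comes from sampling of clonotypes was not tested.

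No single CDR3 length passed the count test between the days. edgeR called 0 of 75 lengths (0% of those tested), with 2 at an unadjusted p below 0.05 and a smallest adjusted p of 0.640. Without Amazo it called 0 of 57 with 1 at an unadjusted p below 0.05. The lengths of smallest p were 24, 30 and 21 nt, all short. The 24 nt class took 0.0368%, 0.0641% and 0.0190% of counts at day -5 and 0.351%, 0.0820% and 0.0370% at day -4 in Amazo, Nebula and Rocket (log2 fold change 1.62, SE 0.53, edgeR adjusted p 0.640). The 30 nt class took 0.387%, 0.606% and 0.243% at day -5 and 1.06%, 0.754% and 0.342% at day -4. The 21 nt class took at most 0.0398% of any library. DESeq2 called 3 lengths, which were 24 and 30 nt as higher and 52 nt as lower at day -4. With each clonotype counted once, edgeR called 1 length, 44 nt, as lower at day -4, with a log2 fold change of -0.46. That call rests on numbers of clonotypes and not on counts. By counts the log2 fold change of 44 nt was -0.11 (edgeR adjusted p 0.951). Its share of counts was 0.341%, 0.504% and 0.394% at day -5 and 0.591%, 0.244% and 0.304% at day -4, higher in Amazo only. The lengths 52 and 44 nt were named after their values had been seen, and both are out of frame.

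D use was close within the Nebula and Rocket pairs and differed in the Amazo pair. TRBD2 made up 38.5%, 29.3% and 42.1% of count-weighted D hits at day -5 in Amazo, Nebula and Rocket and 24.5%, 28.8% and 41.2% at day -4. It was lower at day -4 in each pair, with differences of -13.95 percentage points in Amazo, -0.46 in Nebula and -0.87 in Rocket (mean -5.09 ± 7.68, SD, n = 3, exact sign-flip permutation p = 0.25, and -0.66 without Amazo). Once per clonotype the shares were 34.1%, 30.1% and 33.5% at day -5 and 30.5%, 30.2% and 34.0% at day -4, and the mean difference was -1.004 points with Amazo and 0.28 points without it. Count-weighted, Nebula minus Rocket was -12.8 points at day -5 and -12.4 points at day -4, far more than either animal moved between the days. Clonotypes without a D hit took 26.6%, 25.6% and 26.0% of productive counts at day -5 and 24.4%, 24.6% and 26.2% at day -4.

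TRBD2 next to a TRBJ1 segment was uncommon in every library. Once per clonotype 8.86%, 9.10% and 9.29% of TRBJ1 clonotypes had TRBD2 as first D hit at day -5 and 9.22%, 9.81% and 9.07% at day -4, against 30.5% to 35.2% of TRBJ2 clonotypes over the 6 libraries. D segments contributed 5.46 to 5.82 assigned bases per productive clonotype, and 23.6% to 24.8% of them tied between both D segments, so first hits of this kind are uncertain. edgeR called 0 of 39 D-J pairs (0% of those tested), with 3 at an unadjusted p below 0.05 and a smallest adjusted p of 0.376. Without Amazo it called 0 of 39 with 6 at an unadjusted p below 0.05. DESeq2 called 5 pairs, of which TRBD2/TRBJ1-1, TRBD2/TRBJ2-4, TRBD2/TRBJ2-7 and TRBJ2-4 without D were higher and TRBD2/TRBJ1-6 was lower at day -4. The D-J pairs called in this way, other than the 3 of smallest edgeR p, were named after their values had been seen. With each clonotype once, edgeR called TRBD2/TRBJ1-4 as higher and TRBD2/TRBJ2-1 and TRBD2/TRBJ2-3 as lower.

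Among the 3 D-J pairs of smallest p, TRBD2/TRBJ1-1 took 0.295%, 0.608% and 0.226% of counts at day -5 and 0.412%, 0.696% and 0.281% at day -4 (log2 fold change 0.22, SE 0.07, edgeR adjusted p 0.376). TRBJ2-4 without a D hit took 1.19%, 1.84% and 0.865% at day -5 and 2.12%, 2.09% and 1.16% at day -4. Both were higher at day -4 in each pair. TRBD2/TRBJ1-6 took 0.198%, 0.228% and 0.158% at day -5 and 0.185%, 0.211% and 0.159% at day -4, so that Rocket did not share its direction.

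The share of nonproductive clonotypes was lower at day -4 in Nebula and Rocket and higher in Amazo. Counted once, they made up 7.34%, 8.87% and 11.1% of clonotypes at day -5 in Amazo, Nebula and Rocket and 8.47%, 5.38% and 7.44% at day -4. Over the 3 pairs this came to -2.02 ± 2.73 points (SD, n = 3, exact sign-flip permutation p = 0.5), or -3.60 points without Amazo. Count-weighted the shares were 4.05%, 6.23% and 4.70% at day -5 and 5.82%, 4.58% and 4.22% at day -4, with a mean difference of -0.12 ± 1.74 points (SD, n = 3, exact sign-flip permutation p = 1) and -1.07 without Amazo. Most were out of frame, from 4.63% to 9.14% of clonotypes, while 0.744% to 2.00% were in frame with a stop codon. The minimum quality score of the CDR3, averaged over clonotypes, was 36.7, 36.8 and 36.8 at day -5 in Amazo, Nebula and Rocket. At day -4 it was 36.9, 33.1 and 35.9, so it was also lower in Nebula and Rocket only. Its bearing on the nonproductive share or on CDR3 length was not tested.

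The nonproductive share was higher among single-count clonotypes than among the rest. Among clonotypes with a single count it was 15.7%, 20.6% and 21.7% at day -5 and 18.1%, 6.06% and 11.6% at day -4 in Amazo, Nebula and Rocket. Among clonotypes with at least 2 counts it was 6.37%, 7.22% and 9.61% at day -5 and 7.21%, 4.87% and 6.60% at day -4. The single-count share was the higher of the 2 in all 6 libraries, by far the least so in Nebula day -4. In that library 2 of the 23 clonotypes of at least 0.1% were also nonproductive (8.70%), above its single-count share. Clonotypes that differed by 1 base from a clonotype with at least 20 times their count made up 7.24% and 7.50% of single-count clonotypes in Nebula and Rocket day -5, 5.47% in Amazo day -4, and 0.55% or less in the other 3 libraries. At an equal depth of 42695 counts the nonproductive share per clonotype was 6.50%, 7.08% and 9.43% at day -5 and 7.08%, 5.38% and 6.81% at day -4, which left differences of -1.70 points in Nebula and -2.63 in Rocket.

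The 66-base run ending in TRBJ1-3 was a large part of the stop-codon class. It was found in 184 of 396 stop-codon clonotypes in Amazo day -5, 272 of 583 in Nebula day -5 and 149 of 341 in Rocket day -5, and in 153 of 389, 52 of 135 and 169 of 371 at day -4. This was 38.5% to 46.7% of stop-codon clonotypes and 43.2% to 61.9% of their counts. No productive clonotype held it, and a further 23 to 53 out-of-frame clonotypes per library did. Clonotypes with the run had a median length of 128 or 129 nt, carried 18 to 42 different V genes. Their translation held F-G-X-G, the motif with which J segments begin the framework after the CDR3, in 182 of 184 stop-codon cases in Amazo day -5, 268 of 272 in Nebula day -5 and 149 of 149 in Rocket day -5, and in 152 of 153, 52 of 52 and 168 of 169 at day -4.

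A minority of clonotypes with the run, 8.0% to 12.2% per library, began with a complete productive CDR3 of their own library. This held for 28 of 229 in Amazo day -5, 26 of 325 in Nebula day -5, 20 of 179 in Rocket day -5, 20 of 196 in Amazo day -4, 6 of 75 in Nebula day -4 and 22 of 205 in Rocket day -4. All of the productive CDR3s found in this way used TRBJ1-1 or TRBJ1-2. The same search in libraries of another name found 1 of 325 for Nebula day -5 in Rocket day -5 and 2 of 179 for Rocket day -5 in Nebula day -5, but 18 of 229 for the library labelled Amazo day -5 in Rocket day -5. The run took 0.412%, 0.809% and 0.496% of all counts at day -5 and 0.497%, 0.319% and 0.414% at day -4, with no shared direction (exact sign-flip permutation p = 0.75). Left out, the unweighted nonproductive share was 6.73%, 7.88% and 10.2% at day -5 and 7.78%, 4.98% and 6.91% at day -4. The run was noticed in the data and counted afterwards.

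**Figure D4:**
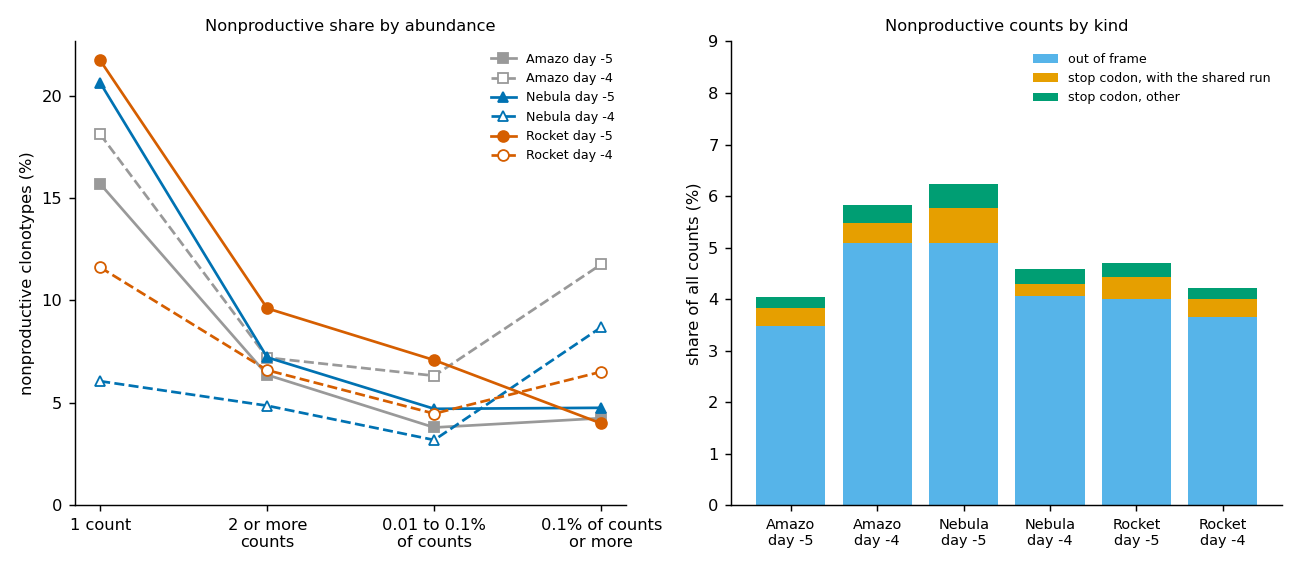
Left, percent of clonotypes that are nonproductive among clonotypes with 1 count, with 2 or more counts (all abundances), and in 2 tiers by share of counts, for each library (day -5 filled and solid, day -4 open and dashed). Right, percent of all counts in out-of-frame and stop-codon clonotypes, the latter split by the 66-base run. Single-count clonotypes reach 21.7% in Rocket day -5, and out-of-frame counts exceed stop-codon counts in all 6 libraries.

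Below 0.1% of counts, the tables of the 2 days differed mainly in how many counts a clonotype received. Counts per clonotype had a broad peak at 12 in Nebula and Rocket day -5, apart from a spike of single-count clonotypes that was higher than the peak. At day -4 the peak was at 1 count in Nebula and 3 in Rocket. In Amazo it was at 4 counts at day -5 and, beside such a spike, at 9 counts at day -4. The peak corresponds to 0.00115% to 0.00282% of a library. A count of 3, taken as the floor, is 0.000539% to 0.00116% of a library, except in Nebula day -4 where it is 0.00703%. The lowest tier therefore holds clonotypes of up to 55 counts in Rocket day -5 and of at most 4 counts in Nebula day -4.

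**Figure D5:**
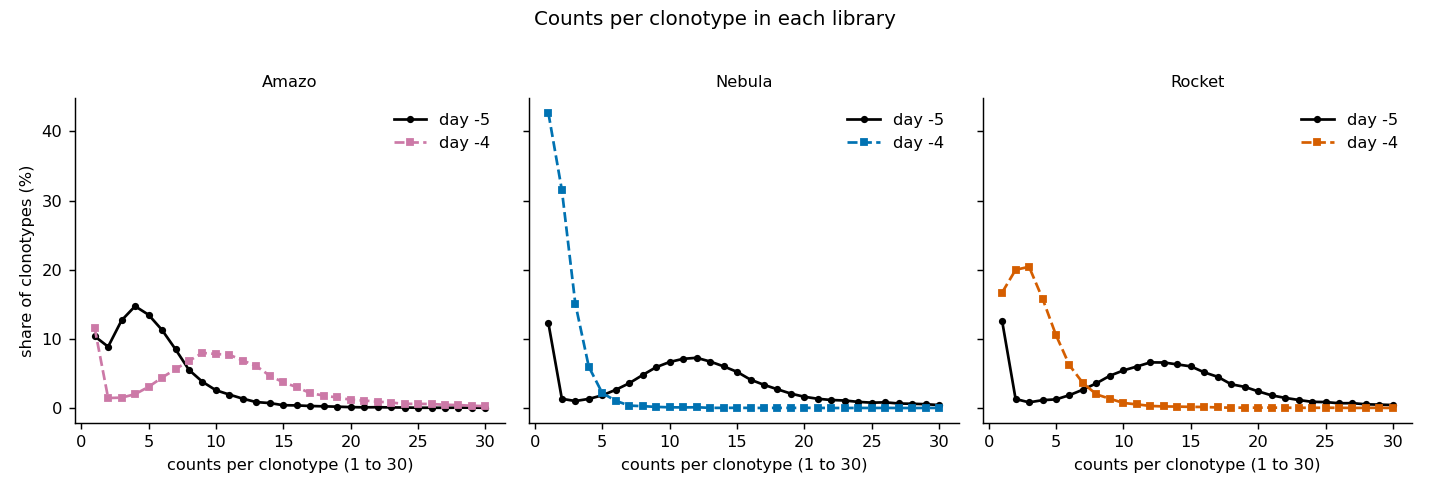
Percent of clonotypes that have a given number of counts, from 1 to 30, at day -5 (solid black) and day -4 (dashed, coloured) in the 3 pairs. Beside a spike at 1 count (12.3% and 12.6%), Nebula and Rocket have a broad peak at 12 counts at day -5, against peaks at 1 and 3 counts at day -4.

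Clonotypes between 0.01% and 0.1% took 6.01%, 9.87% and 6.06% of counts at day -5 in Amazo, Nebula and Rocket and 8.79%, 15.0% and 4.85% at day -4. Its mean change was 2.23 ± 3.19 points (SD, n = 3, exact sign-flip permutation p = 0.5) and 1.95 without Amazo, with Rocket in the other direction. At an equal depth of 42695 counts the differences were 7.01, -1.94 and -2.54 points, so that Nebula turned. Clonotypes below 0.01% took 53.6%, 83.9% and 39.2% of counts at day -5 and 69.1%, 74.2% and 50.1% at day -4 (mean difference 5.56 ± 13.4, SD, n = 3, exact sign-flip permutation p = 0.5, and 0.61 without Amazo). At equal depth its differences were 11.3, -2.55 and 12.3 points, with a mean of 4.88 without Amazo. Single-count clonotypes made up 10.4%, 12.3% and 12.6% of clonotypes at day -5 and 11.6%, 42.7% and 16.7% at day -4. They were more frequent at day -4 in all 3 pairs (exact sign-flip permutation p = 0.25), but at equal depth the differences were -18.9, -3.82 and 19.3 points.

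Weighted by counts, CDR3s of the lower tiers differed in length and polarity from those of the large clones, with values given as a description. Clonotypes of at least 0.1% numbered 21 to 50 per library, and their count-weighted mean length was 41.94 and 42.31 nt in Amazo, 44.52 and 44.30 nt in Nebula and 41.85 and 41.86 nt in Rocket at day -5 and day -4. Below 0.01% it was 43.39 and 43.17 nt in Amazo, 43.27 and 43.13 nt in Nebula, and 43.49 and 43.35 nt in Rocket, shorter at day -4 in each pair by 0.223, 0.143 and 0.145 nt in size (exact sign-flip permutation p = 0.25). Loops of the large clones were less polar in Nebula and Rocket, with a hydropathy between -0.49 and -0.46 at both days against -1.09 to -1.06 below 0.01%. The large clones had -0.56 in the library labelled Amazo day -5 and -1.27 in Amazo day -4. Once per clonotype the contrast in polarity was smaller, and large clones of Nebula and Rocket then had a hydropathy of -0.89 to -0.58. The contrast in length was smaller in Rocket and in Amazo day -5. In Rocket day -5 large clones averaged 43.69 nt, against 43.67 nt below 0.01%. The length contrast was larger in Nebula, with 45.00 against 43.43 nt at day -5 and 44.57 against 43.16 nt at day -4. It was also larger in Amazo day -4, with 41.70 against 43.32 nt.

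Inserted bases also differed between the tiers of Nebula and Rocket when weighted by counts. Large clones had 5.34 and 5.18 inserted bases per count in Nebula and 6.17 and 6.23 in Rocket, at day -5 and day -4. Clonotypes of 0.01% to 0.1% had 8.08 and 7.76 in Nebula and 8.07 and 7.81 in Rocket, and below 0.01% there were 7.61 and 7.56 in Nebula and 7.12 and 7.10 in Rocket. In both lower tiers the number was slightly lower at day -4 in these pairs. In Amazo it was higher at day -4 in all 3 tiers, by 1.73, 0.114 and 0.513 bases. Once per clonotype, large clones had 7.25 and 7.29 inserted bases in Nebula and 6.60 and 6.95 in Rocket, closer to the 7.75 and 7.55 of Nebula and the 7.23 and 7.12 of Rocket below 0.01%.

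Examples among the largest clonotypes of the lower tiers are shown here, with capitals for inserted bases.
Nebula, largest of 0.01% to 0.1% at day -5: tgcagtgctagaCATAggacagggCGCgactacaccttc
Rocket, largest of 0.01% to 0.1% at day -4: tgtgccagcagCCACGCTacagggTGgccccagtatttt
Rocket, largest below 0.01% at day -4: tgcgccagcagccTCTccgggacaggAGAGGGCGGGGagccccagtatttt
Nebula, largest below 0.01% at day -5: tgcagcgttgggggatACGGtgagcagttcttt
The first had 420 counts (0.0985%) at day -5 and 73 (0.171%) at day -4 and crossed the 0.1% limit. The second had 501 counts in Rocket day -5 and 257 in Rocket day -4, and 286 in the library labelled Amazo day -5. The third had 49 and 25 counts in Rocket and 41 in Amazo day -5. The last had 42 counts in Nebula day -5 and 0 in Nebula day -4, where 3 counts would be 0.00703% against its 0.00985% at day -5. Not shown is the largest clonotype below 0.01% of Rocket day -5 (TRBV20-1, no D, TRBJ1-2). It had 55 counts (0.00988%) there and 0 in Rocket day -4, where 3 counts would be 0.00116%.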

How the data were processed

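TRB transcripts of frozen blood leukocytes were copied from total RNA by template switching, amplified with a TRB constant-region primer and sequenced on a MiSeq. Per the labels and methods, the authors used Trimmomatic for read trimming, then MiXCR with its default settings, against a known rhesus TRB reference. Versions and the reference build were not given in the sources used here. The deposited clone tables give a count of reads per clonotype, its fraction of the library, and a minimum quality score over the CDR3. A stated clone threshold of 0.5% and barcode collapsing left no trace in the deposited counts.

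Clonotypes were kept as listed. The first V, D and J hits were used, and inserted bases were read from the deposited alignment points. Animal names from the labels paired the libraries. Same-name deviations of V-J counts correlated at -0.05 in Amazo and 0.70 in both other pairs. Single values were tested with exact two-sided sign-flip permutation tests. Counts were tested with edgeR 4.0.16 (TMM, animal block, Benjamini-Hochberg, features with a count of 10 in 3 or more libraries) and, as an alternative, DESeq2 1.42.0, in R 4.3.3. Python 3.11.15 with pandas 2.3.3 and scipy 1.17.1 did the rest, and functions were tested on simulated data.

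The text names V-J pairs, lengths and D-J pairs past adjusted p 0.05 or, where fewer than 3 passed, the 3 of smallest p, plus the 5 V-J pairs of largest mean share, amino acids moving 1 way in every pair, and largest clonotypes by class and tier. Members, lists and rules were chosen with earlier results of these data known. The other 6 libraries entered no test, and values of 2 of them are set beside these in the closing section.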

Additional observations from a re-analysis of the deposited data

How the results depend on the processing

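Of 237 alternatives over 23 results, 215 kept the sign of a mean difference or a similar number of features counted. Part of this was fixed in advance, since leaving out the replicate block cannot change a mean difference. At the depth of the shallowest library, count-weighted values other than the tiers were also unchanged by construction. The size of a difference was not judged. Count-weighted TRBD2 share kept its sign but was -0.654 points without clonotypes of at least 0.5%, against -5.09 points with them. Under every alternative run, 10 results did not reverse or move. The mean difference of unweighted CDR3 length stayed negative in all alternatives, from -0.270 to -0.222 nt with 1 pair left out. With nonproductive clonotypes included it was -0.573 nt and the pairs no longer shared a direction. Leaving out 1 pair turned unweighted hydropathy (-0.00952 to 0.0201), V-J mutual information (-0.00864 to 0.00613 bits, the highest without Rocket) and TRBD2 share (-1.74 to 0.284 points), where the values without Amazo were -0.00952 and 0.284 for hydropathy and TRBD2. It also turned the count-weighted nonproductive share (-1.07 to 0.644 points, 0.0608 without Rocket) and the unweighted 0.01% to 0.1% tier (-0.0914 to 1.94 points, the lowest without Nebula). Amino acids moving 1 way numbered 7 to 16 count-weighted and 7 to 13 once per clonotype with 1 pair left out (8 without Nebula), since fewer pairs have to match, and 8 once per clonotype over the whole CDR3. At the depth of the shallowest library the unweighted 0.01% to 0.1% tier was -0.0808 and single-count clonotypes -1.14 points. With at least 2 counts per clonotype, unweighted mutual information was 0.00623 bits. Without clonotypes of at least 0.5%, count-weighted length was -0.234 nt, hydropathy 0.00279 and clonotypes without D 0.866 points. With nonproductive clonotypes included, count-weighted length was -0.108 nt. The causes were not tested. DESeq2 called 3 lengths and 5 D-J pairs, and edgeR on clonotypes counted once called 1 length and 3 D-J pairs, against 0 otherwise. Without the replicate block, edgeR called 0 V-J pairs, 0 lengths and 0 D-J pairs, with 3, 2 and 1 at an unadjusted p below 0.05. Scaling to total counts in place of TMM moved the median log2 fold change to 0.18 for V-J pairs and 0.12 for D-J pairs. Settings drawn at equal numbers or from 50% of the histogram peak were chosen after seeing the data. Depth limits Nebula day -4 most, where 3 counts are 0.00703% of the library.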

Other observations

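A pair of further libraries of these animals entered no test, because neither was taken on day -5 or day -4, and their values are given for description. The Nebula library of day 0 held 258096 counts in 30488 clonotypes. Its productive CDR3s averaged 43.28 nt by counts and 43.37 nt once per clonotype, the latter between the Nebula values of day -5 and day -4. Its nonproductive share was 5.74% of counts and 7.72% of clonotypes, and TRBD2 made up 28.8% of D hits by counts and 29.9% once per clonotype.

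The library labelled Amazo day +3 held 303525 counts in 24945 clonotypes. Its Morisita-Horn index was 0.969 with Amazo day -5 and 0.977 with Rocket day -4. Its CDR3s averaged 42.53 nt by counts and 43.51 nt once per clonotype, and TRBD2 made up 40.7% of D hits by counts and 34.3% once per clonotype, closer to Amazo day -5 than to Amazo day -4 in each of these 4 values.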
